A study of Mus musculus with 36 samples.

Results

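The cells described here were picked from mouse submandibular salivary glands by the transcripts they held together. A cell of a double-mutant gland counted as a Wnt and Bmp cell if it had at least 1 UMI (unique molecular identifier, a counted transcript molecule) of 2 or more of 8 genes, namely Bmp2, Bmp4, Dkk4, Lef1, Nkd1, Notum, Sp5 and S100a14. It also had to have no UMI of Col1a1, Col1a2, Col3a1, Ptprc, Cd3e or Pecam1, which mark fibroblasts, leukocytes and endothelium. In all, 214 of 13792 double-mutant cells met the rule, which is 1.55% (exact 95% binomial interval 1.35 to 1.77), out of 25993 cells in the whole series. The cells of the double-mutant glands carried the alleles beta-catenin GOF and Bmpr1a LOF, a gain of beta-catenin and a loss of the Bmp receptor Bmpr1a, both recombined by Cre under the keratin 14 (K14) promoter. The control mice, labelled wildtype or control, carried K14-Cre with the Cre-inducible EYFP reporter at the R26 locus, which the double mutants carried too, and all mice were on a C57BL/6 background. Of the double-mutant glands, 7 of postnatal day 40 (P40) and 7 of P90 went into Drop-seq, which counts RNA per cell, and 2 of P70 into CITE-seq, which adds antibody tags for surface proteins. The controls were 14 glands of the same stages and assays. Each sample was 1 gland, and 2 bulk RNA-seq libraries stood beside them, a control of P70 and a double mutant of P100, both female. K14 is a gene of basal epithelium, so the design aims recombination at basal cells and their progeny and not at stromal or immune cells.

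Canonical Wnt signals keep beta-catenin from being degraded, and beta-catenin then enters the nucleus and works with TCF and LEF factors on target genes. Many of those targets restrain the pathway again: Axin2 and Nkd1 act inside the cell, Dkk4 and Wif1 are secreted antagonists, and Notum removes the lipid that Wnt proteins need. Bmp ligands signal through receptors such as Bmpr1a to Smad factors and Id genes. In the skin and oral ectoderm of the embryo, cells with high Wnt activity gather in placodes that send out Bmp, Fgf and Shh signals, and the same pathways shape the branching salivary gland. In the study, cells of this kind in the tumours were described as cancer stem cell-like.

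The sequences before the gene starts were searched for the letters through which TCF and LEF factors are best known to bind. The core CTTTGAT was looked for on both strands in the 250 bases before the RefSeq starts in GRCm38.p6, the assembly also called mm10 in the labels. Promoters were found for 19 of 28 genes looked for, the 8 genes of the rule and the 20 genes outside it that set the cells apart most (below). The core was in that window for 2 of the 19 genes, Sp5 and Tnfrsf19, or 10.5%, against 3.72% of all 27025 genes in the table. Sp5 is a Wnt-induced zinc finger repressor, and its core lay in the window chr2:70474673-70474922 on the plus strand. Tnfrsf19 (Troy) is a receptor of Wnt-active progenitors, and the core was found before the second of its 2 starts, on the opposite strand and so printed as ATCAAAG, in the window chr14:61037988-61038237 on the minus strand. Both are shown 5′ to 3′ with the core in capitals, since they are the only ones of the 19 genes with it. In the other windows searched these letters did not occur, and no more follows from that.
Sp5: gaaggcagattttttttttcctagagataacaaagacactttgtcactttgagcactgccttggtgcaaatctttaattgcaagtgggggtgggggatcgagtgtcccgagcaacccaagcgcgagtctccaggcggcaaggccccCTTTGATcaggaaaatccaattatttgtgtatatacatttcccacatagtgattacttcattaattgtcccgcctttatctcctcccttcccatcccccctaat
Tnfrsf19: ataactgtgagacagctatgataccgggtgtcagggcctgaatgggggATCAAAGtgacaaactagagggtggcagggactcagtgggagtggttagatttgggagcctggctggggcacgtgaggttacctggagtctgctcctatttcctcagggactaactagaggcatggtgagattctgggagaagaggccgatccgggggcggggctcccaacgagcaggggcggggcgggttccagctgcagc

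The libraries were of uneven depth, with a median of 408 to 4036 UMIs per kept cell over the 16 double-mutant glands and 521 to 1209 kept cells per gland. The Wnt and Bmp cells had a median of 1017 UMIs and the other cells without the 6 excluding genes 1190. Sex labels went against the data in 2 libraries of batch 11: P40 R1 carries a male label but had 708 UMIs of Xist and 1 of Y-linked genes, and P90 R5 carries a female label but had 1 of Xist and 225 of Y-linked genes, so that their stage is in doubt as well. Both P70 double-mutant libraries, labelled female, held Xist UMIs (213 and 187) and Y-linked UMIs (64 and 51). P90 R4, which the study left out of its own subclustering, had a ribosomal share of 6.80% of its UMIs, within the 2.51 to 7.91% of the 16 libraries. Only 21 barcodes of kept cells occurred in more than 1 library, and 0 of them belonged to a Wnt and Bmp cell.

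Cells that met the rule were found in every double-mutant gland. At P40 their share of the kept cells ran from 0.399% (P40 R4) over a median of 0.588% to 3.49% (P40 R6, 38 of 1089 cells). At P90 it ran from 0.735% (P90 R7) over a median of 1.65% to 3.39% (P90 R4, 29 of 856 cells), and the P70 glands had 1.05% and 1.34%. The 2 stages overlapped over most of their range, and single glands of either stage exceeded 3%. With every cell thinned to 500 UMIs, the share was 0% in P40 R3 and 0.00735% in P90 R7. In these 2 glands the cells that met the rule were very deep (below). In the 14 control glands, 12 of 12201 cells met the same rule (0.0984%, exact interval 0.0508 to 0.172), in 7 of the glands, and the highest control share was 0.585%. The rule genes were chosen for double-mutant cells, so the gap to the controls is a description.

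**Figure D1:**
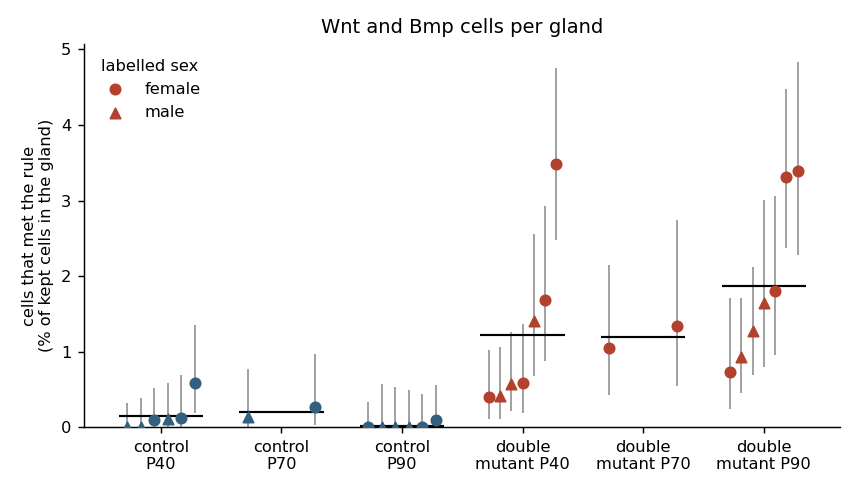
Share of kept cells that met the rule in each of the 30 glands (circles, labelled female; triangles, labelled male), with exact 95% binomial bars that cover counting error only and the mean of each group as a line. The double-mutant glands lie between 0.399% and 3.49%, and control glands do not exceed 0.585%.

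Stage and sex were not used by the rule and were compared over glands. The mean share was 1.87% ± 1.08 (SD, n = 7) at P90 and 1.22% ± 1.121 (SD, n = 7) at P40, a difference of 0.647 percentage points that was within the spread between glands (two-sided exact permutation test, p = 0.269, adjusted p = 0.538 over the 4 share tests). In female glands it was 1.93% ± 1.31 (SD, n = 8) and in male glands 1.04% ± 0.483 (SD, n = 6), a difference of 0.883 points (exact permutation p = 0.145, adjusted p = 0.538). Without the 2 libraries of doubtful label these differences were 0.300 and 0.593 points (exact permutation p = 0.602 and p = 0.356). Within the batches that held both stages, P90 minus P40 was 2.41 points in batch 11, 0.870 in batch 12 and -1.71 in batch 13, with 1 to 3 P40 glands against 1 P90 gland, so the sign was not the same in all 3. With every cell thinned to 500 UMIs the difference between stages was 0.862 points (exact permutation p = 0.194), and with cells thinned to 1000 UMIs it was 0.553 (p = 0.497). In a binomial mixed model of the kind the study used, with sex and stage as terms, the log odds were 0.55 ± 0.33 (SE) for P90 against P40 and 0.56 ± 0.34 for female against male.

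The genes of the rule were spread unevenly over the cells. Notum was found in 128 of the 214 cells, Nkd1 in 123, S100a14 in 114, Bmp4 in 82, Bmp2 in 79, Dkk4 in 48, Lef1 in 40 and Sp5 in 27. Notum, Nkd1 and Lef1 had UMIs in the chosen cells of all 16 glands, whereas Dkk4 and Sp5 were found in 10 glands each. S100a14, a calcium-binding protein of epithelia and the only gene of the rule without a Wnt or Bmp role, was found in 13 glands. The most common pair was Nkd1 with Notum (71 cells), followed by Nkd1 with S100a14 (65 cells), and both Bmp ligands were detected together in 46 cells. Of the 82 cells with Bmp4, 56.1% also had Bmp2. Over all kept double-mutant cells the chosen cells held 82.4% of the 131 Dkk4 UMIs, 72.8% of the 217 Bmp2 UMIs and 68.0% of the 225 Bmp4 UMIs, but only 46.5% of the 495 Nkd1 UMIs. Nkd1 was thus also found widely outside of them, with UMIs in 167 cells that had no second gene of the rule and no excluding gene.

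Many chosen cells lay close to the threshold. Exactly 2 genes of the rule were found in 100 cells, 3 in 53, 4 in 32 and 5 or more in 29. Just outside it, 455 cells had a single gene and 11148 had none. A further 16 cells had 2 or more genes of the rule and an excluding gene; 11 of these had a collagen UMI, 5 a Pecam1 UMI and 0 a Ptprc UMI. Cells just inside had a median of 880.5 UMIs and cells just outside 1268, so by the median the former were no deeper. The deepest cells lay at the threshold, however: 16 of the 17 chosen cells with over 5000 UMIs had exactly 2 genes of the rule.

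Several genes that the rule did not name were found more often in cells with more rule genes. Ptn (pleiotrophin, a secreted growth factor) was found in 2.66% of cells with no gene of the rule, 27.9% of cells with 1, 63.0% with 2, 94.3% with 3, 93.8% with 4 and 100% of the 29 cells with 5 or more. Axin2, the most used readout of Wnt activity, went from 0.933% over 26.0% at 2 genes, 49.1% at 3 and 43.8% at 4 to 72.4% at 5 or more. Wif1 went from 2.69% over 36.0% to 82.8%. Fgf20, a signal of ectodermal placodes, was found in 2 of 11148 cells without a gene of the rule and in 17 of the 29 cells with 5 or more. Pla2g2a did not climb in this way among the cells that met the rule, with 20% at 2 genes, 28.3% at 3, 31.25% at 4 and 27.6% at 5 or more. These cells had been selected in this contrast, so the values describe them and were not tested. Their median depth was 880.5 UMIs at 2 genes and 1577 at 5 or more, and these shares were not thinned.

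**Figure D2:**
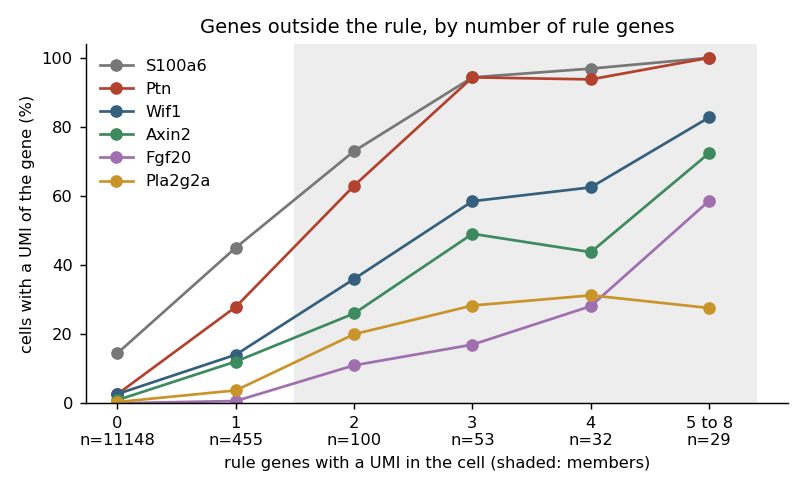
Percent of double-mutant cells (vertical axis) with a UMI of 6 genes that were not part of the rule, by the number of rule genes found in the cell (horizontal axis, with the number of cells; shaded columns met the rule). Ptn goes from 2.66% of cells with none to 100% of cells with 5 or more, and Fgf20 from near 0 to 58.6%.

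Across glands, the strongest of these genes was Ptn. In the 14 glands with 5 or more chosen cells, their Ptn level ran from 0 over a median of 7513 to 11901 CPM (UMIs per 1000000 UMIs), against a median of 58.6 and a maximum of 353 CPM in the other cells of the same glands. It was higher in 13 of the 14 glands; the exception was P90 R7, where 5 chosen cells of 17916 median UMIs had no Ptn UMI. Axin2 was higher in all 14 glands, from 35.2 over 492 to 1183 CPM, against a median of 6.21 and a maximum of 47.6 CPM in other cells. S100a6, a calcium-binding protein of growing and tumour cells, ran from 0 over 12370 to 30688 CPM against a median of 339. These pooled levels lean on a few cells, since 17 very deep ones held 52.5% of the 501676 UMIs of the 214. As a background level, 2.0% of 1353 cells with Ptprc or Pecam1 (median 808 UMIs) had a Ptn UMI and 0.887% an Axin2 UMI, against 80.4% and 40.7% of the Wnt and Bmp cells. Thinned to 500 UMIs per cell, the shares were 74.9% and 23.2% in 173 Wnt and Bmp cells, 2.21% and 0.515% in other cells, and 1.41% and 0.429% in cells with Ptprc or Pecam1.

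Of 3075 genes with at least 20 UMIs observed or expected in the chosen cells, 119 (3.87%) were at least 2-fold higher there than in other cells and higher in at least 90% of the 14 glands, and 90 (2.93%) were as much lower. After Ptn, Axin2 and S100a6 the leading genes were Cxcl14, a chemokine (492 against 15.5 CPM), Plat, the tissue plasminogen activator (157 against 5.52), Smoc2, a matrix protein (257 against 10.5), Lgals7, a lectin of stratified epithelia (277 against 14.9), and Tnfrsf19 (124 against 10.8). Kitl, the ligand of the Kit receptor, stood at 345 against 31.9 CPM, and the syndecan Sdc1 at 128 against 15.2 CPM. Tcf12 and Tcf4, which encode E-proteins that pair with other helix-loop-helix factors and are distinct from the TCF factors of the Wnt pathway, stood at 177 and 379 CPM against 18 and 58.4. Rdh10, which makes the precursor of retinoic acid, stood at 103.7 against 14.1, and Zfp503 at 112 against 17.6. Rab6a, Blmh, Mier1, S100a16 and H2afy completed the 20, between 5.0 and 6.9 times higher. Ctnnb1, the beta-catenin gene, was among them too, at 367 against 69.9 CPM and higher in 13 of 14 glands. Many of the rest of the 119 were ribosomal protein genes, such as Rpl7 (1048 against 346 CPM) and Rps12 (1134 against 388 CPM). The 20 genes were taken by the size of the ratio among those higher in at least 90% of glands with at least 50 UMIs in the chosen cells. A gene scarce elsewhere could meet either minimum of UMIs only through the chosen cells, so large ratios are in part built in. Without the 2 libraries of doubtful label 145 genes were as much higher, among them all but 1 of the 119. With 3 or more genes of the rule required, 149 of 1393 genes were so, of which only 68 were among the 119.

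**Figure D3:**
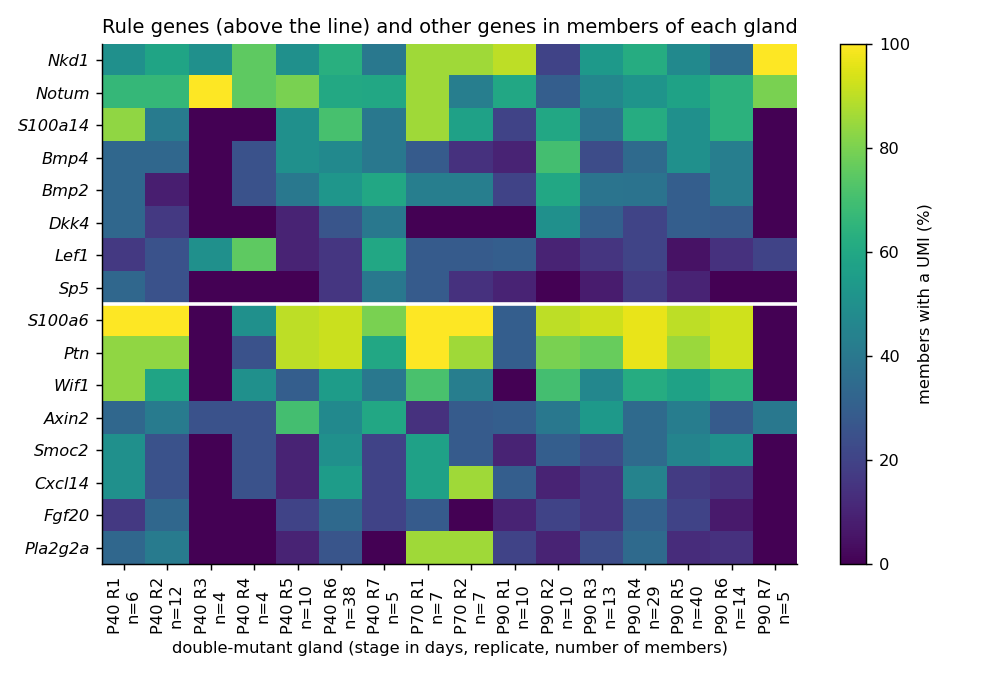
Percent of the Wnt and Bmp cells of each double-mutant gland (columns, with stage, replicate and number of cells) that had a UMI of each rule gene (above the white line) and of 8 other genes (below it). S100a6 and Ptn are found in most cells of most glands, except P40 R3 and P90 R7 (0 cells) and P90 R1 and P40 R4.

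Among Wnt targets and feedback genes, 16 of 18 listed genes outside the rule had UMIs in the chosen cells, and 9 reached the minimum of 20 UMIs. All 9 stood at least 2-fold above other cells, as did 42.2% of all genes at that minimum (1298 of 3075), with a median log2 ratio of 3.52 against 0.88 over all of them, and 3 of them (Axin2, Cd44 and Tnfrsf19) were so in at least 90% of glands. A gene scarce elsewhere could reach the minimum only through the chosen cells, so these counts are no support. Wif1 was found in 111 cells of 13 glands (797 against 28.5 CPM), with 0 UMIs in P90 R1, P90 R7 and P40 R3. Dkk2, a relative of Dkk4, was found in 38 cells (175 against 3.30 CPM). The ubiquitin ligases Rnf43 and Znrf3, which clear Wnt receptors from the cell surface, stood at 75.7 and 81.7 CPM against 7.68 and 7.22. Ccnd1 (cyclin D1) stood at 205 against 57.5. Myc stood at 35.9 against 27.9 CPM, higher in 7 of 14 glands, and Ascl2 and Dkk1 had 0 UMIs, which is under the floor of 3 UMIs in 501676.

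Wnt ligands were sparse. Of 14 listed ligands in the tables, 11 had any UMI and 3 reached 20 UMIs, all 3 above 2-fold (42.2% of all genes at that minimum). Wnt6 was found in 35 cells of 9 glands, with 52 UMIs against 10 in 11603 other cells. Wnt5a, a non-canonical ligand, was found in 28 cells (71.8 against 4.12 CPM) and Wnt16 in 16 cells (61.8 against 0.327 CPM). Wnt10a had 18 UMIs and Wnt7a 9. Wnt4 stood at 11.96 against 25.6 CPM on 6 UMIs. Of 22 receptors and transducers 4 reached 20 UMIs, and of these Ctnnb1 was at least 2-fold higher in at least 90% of glands; Apc stood at 57.8 against 23.1 CPM, Gsk3b at 73.8 against 42.1, and the receptor Fzd10 at 37.9 against 1.34 on 19 UMIs.

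In the Bmp pathway the ligand Bmp7 stood beside Bmp2 and Bmp4, with 41 UMIs in 35 cells of 10 glands (81.7 against 2.65 CPM). The pseudoreceptor Bambi, which blocks Bmp and Tgf-beta signals, was found in 37 cells (142 against 7.75 CPM), and the inhibitory Smad7 in 31 cells (71.8 against 18.4). The Id genes, the usual readouts of Bmp signalling, showed no such gap: Id2 stood at 209 against 338 CPM and was higher in 2 of 14 glands, Id1 at 69.8 against 52.2 (7 glands) and Id3 at 187 against 108 (7 glands). Among cells of at most 5000 UMIs, Id1 stood at 147 against 107 CPM, Id2 at 394 against 500.2 and Id3 at 394 against 224. Bmpr1a transcripts, 12 UMIs in 12 cells, stood at 23.9 against 18.5 CPM; the tables count transcripts of the whole gene and do not tell intact from recombined alleles. Bmp5, Bmp6, Bmpr1b, Chrd, Grem1 and Smad9 had 0 UMIs. Of the 29 listed genes 10 reached 20 UMIs, 7 of these were at least 2-fold higher, against 42.2% of all genes at that minimum, and 0 were so in 90% of glands.

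Genes of ectodermal placodes and of the hedgehog pathway were found in the same cells. Fgf20 had 63 UMIs in 46 cells of 12 glands and 5 UMIs in all other cells. The hedgehog receptor Ptch1 had 22 UMIs in 18 cells, and the ligand Shh 8 UMIs in 7 cells. Edar, the ectodysplasin receptor, was found in 12 cells and the homeobox gene Dlx3 in 15 cells (29.9 against 0.784 CPM). Eda and Hhip had 0 UMIs. Only 3 of the 18 listed genes reached 20 UMIs, and 0 of these 3 were higher in 90% of glands.

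Other pathways were read in the same way, each with few genes at the minimum of UMIs. The median log2 ratio was 2.0 over 2 Notch genes and 2.01 over 7 growth factor ligands, of which Ptn was described above. Hes1, the commonest Notch target, stood at 225 against 64.9 CPM (higher in 11 of 14 glands), and Notch1 at 59.8 against 13.01 on 30 UMIs. The platelet-derived growth factor Pdgfa stood at 175 against 43.4 CPM and the inhibin subunit Inhbb at 49.8 against 5.3. Of 18 genes of epithelial-mesenchymal change and matrix 6 reached 20 UMIs. Of these, 3 were over 2-fold higher, near the 42.2% of all genes at that minimum, and the median log2 ratio was 0.86 against 0.88. The list summed to 8364 against 648 CPM (13 of 14 glands), most of it S100a6. Of the others, Snai2 had 7 UMIs and Twist2 10, while Vim was lower (7.97 against 51.8 CPM) and the epithelial cadherin Cdh1 higher (156 against 67.1). Stemness genes after the study's list, leaving out Bmp4 as a gene of the rule and taking Aldh1a1 and Aldh1a3 for the Aldh1a family, were sparse: 11 of 13 in the tables had a UMI, Nanog and Tdgf1 had 0, and 2 reached 20 UMIs, of which 1, Aldh1a3, was over 2-fold higher (39.9 against 8.96 CPM), a share near that of all genes. Sox2 had 17 UMIs in 13 cells of 10 glands, against 4.51 CPM elsewhere as a pooled level, and Prom1, which encodes CD133, 11 UMIs (21.9 against 14.3 CPM). Axin2 and Wif1, Wnt targets outside the rule, were found in these cells, but Myc differed little and Ascl2 and Dkk1 had no UMI. As the cells were chosen by Wnt genes, this is no check of the label. The stemness transcripts outside the rule were too sparse to check the name of stem cell.

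Some genes were picked after their values were seen, because they were large but not in 90% of glands. Pla2g2a, a secreted phospholipase, had 1457 UMIs in 53 cells of 12 glands (2904 against 6.37 CPM), of which 85.4% came from 12 cells of the 2 P70 glands. In the Drop-seq glands 212 UMIs in 41 cells remained, or 450.0 CPM. Gp2, a membrane glycoprotein of secretory cells, had 380 UMIs in 40 cells of 10 glands, and the transcription factor Prox1 74 UMIs in 47 cells of 11 glands. Krt79 was found in 32 cells of 12 glands and Egfl6 in 34 cells. The granzyme gene Gzma was found in 27 cells of 11 glands (12.6% of the chosen cells), against 1.85% of cells with Ptprc or Pecam1 and 0.362% of other cells. Defa21 and Defa22, near-identical alpha-defensins whose reads cannot be told apart with certainty, came from 1 cell of P70 R2, with 64 and 86 UMIs.

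Markers of other cell types were read in the same cells. Collagen, Ptprc, Cd3e and Pecam1 were absent by the rule. Of 6 further endothelial markers only 1 had any UMI, with Cdh5, Cldn5, Egfl7, Emcn and Plvap at 0, and the summed T and NK markers stood between 0 and 101 CPM, against 3.82 to 285 in other cells. The 8 macrophage markers summed to 0 to 1066 CPM (median 85.4), against 422 to 8361 (median 2793) in other cells of the same glands. Fibroblast markers beyond the collagens were higher, with a median sum of 1152 against 53.9 CPM and in 11 of 14 glands, but 3 of 6 (Col5a1, Col6a1 and Lum) had 0 UMIs and nearly all of the sum was Dcn, the proteoglycan decorin, with 328 UMIs in 67 cells. Pericyte markers summed to 0 to 902 CPM, higher in 6 of 14 glands, and myoepithelial markers to 0 to 601, higher in 2. Acinar and duct secretory genes were lower in the chosen cells, with medians of 6636 against 85522 CPM for the acinar list and 727 against 14943 CPM for the duct list, lower in 13 and 14 of the 14 glands. Part of the general excess of other genes (median log2 ratio 0.88) moves with this smaller secretory share, and its part in the ratios was not tested.

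A few very deep cells stood apart. Of the 214 cells 17 had over 5000 UMIs, in 6 glands, with a median of 16415 UMIs. Secretory transcripts (Spt1, Scgb1b27, Scgb2b27, Scgb2b26, Car6, Pip, Prol1 and Wfdc12) made up 70.7% of their UMIs, against 6.90% in the 197 other cells. Ptn was found in 1 of the 17 (5.88%) and in 171 of the 197 (86.8%), Axin2 in 35.3% and 41.1%. Nkd1 was found in 14 of the 17, Notum in 12 and Lef1 in 7, while Bmp2, Dkk4 and Sp5 were found in 0. By glands, P40 R3 and P90 R7, where the chosen cells had medians of 12204 and 17916 UMIs, had no cell with Ptn, S100a6, Wif1 or a Bmp ligand. Over all glands 181 cells had Ptn or Axin2 (median 985 UMIs) and 33 had neither (median 2746 UMIs); 30 of those 33 had exactly 2 genes of the rule. Without the deep cells 108 genes were at least 2-fold higher in 90% of glands, 68 of them among the 119 above, and Ptn was still among them while Axin2 was not.

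The cells fell on both sides of the epithelial keratins. With more Krt14 and Krt5 UMIs than Krt8 and Krt18 UMIs, 58 cells were basal-keratin cells; the reverse held for 108 luminal-keratin cells, and 48 had equal numbers, of which 43 had no UMI of the 4 keratins. Only 13 of the basal-keratin and 3 of the luminal-keratin cells held keratins of both sides. The basal-keratin cells came from 11 glands and the luminal-keratin cells from all 16. Of the 14 cells of the P70 glands 13 were luminal-keratin cells, and P40 R3, P40 R4, P70 R2, P90 R1 and P90 R7 had no basal-keratin cell. Over glands with at least 5 classed cells the basal-keratin share was 44.8% ± 27.5 (SD, n = 6) at P90 and 43.8% ± 18.2 (SD, n = 5) at P40 (exact permutation p = 0.963, adjusted p = 0.963). It was 43.1% ± 18.4 (SD, n = 6) in female and 45.8% ± 29.2 (SD, n = 5) in male glands (exact permutation p = 0.851, adjusted p = 0.963). Without the 2 libraries of doubtful label the differences were 2.26 points by stage and -2.25 points by sex. With so few cells a gland, these shares cannot show a modest difference.

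Both keratin classes held Wnt targets and Ptn, but not the same other genes. Dkk4 was found in 53.4% of basal-keratin and 4.63% of luminal-keratin cells, Bmp4 in 56.9% and 25%, and Bmp2 in 51.7% and 27.8%. Nkd1 went the other way, with 34.5% and 72.2%. Notum (51.7% and 65.7%), S100a14 (51.7% and 55.6%) and Fgf20 (24.1% and 17.6%) were found on both sides. Wnt16 was found in 22.4% and 0.926%, Ccnd1 in 46.6% and 12.04%, and Dcn in 72.4% and 9.26%. Trp63, the basal master regulator, was found in 20.7% of basal-keratin and 0 of 108 luminal-keratin cells. On the luminal side, the tight junction genes Cldn3 and Cldn7 were found in 39.8% and 32.4%, Krt19 in 14.8%, Sox2 and Areg in 12.04% each, Pla2g2a in 48.1% and Gp2 in 37.0%, each with 0 of 58 basal-keratin cells, which allows a share of cells with a UMI of up to 5.17% and sets no limit on cells expressing the gene. These are shares over pooled cells, given with no test. The median depth was 940.5 UMIs in basal-keratin and 1350.5 in luminal-keratin cells, and secretory transcripts made up 3.43% and 50.4% of their UMIs. The luminal share came from deep cells of a few glands: it was over 50% in 5 of 16 glands (P40 R3, P40 R4, P40 R7, P90 R1 and P90 R7), 25.5% in P90 R5 and under 10% in the other 10.

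**Figure D4:**
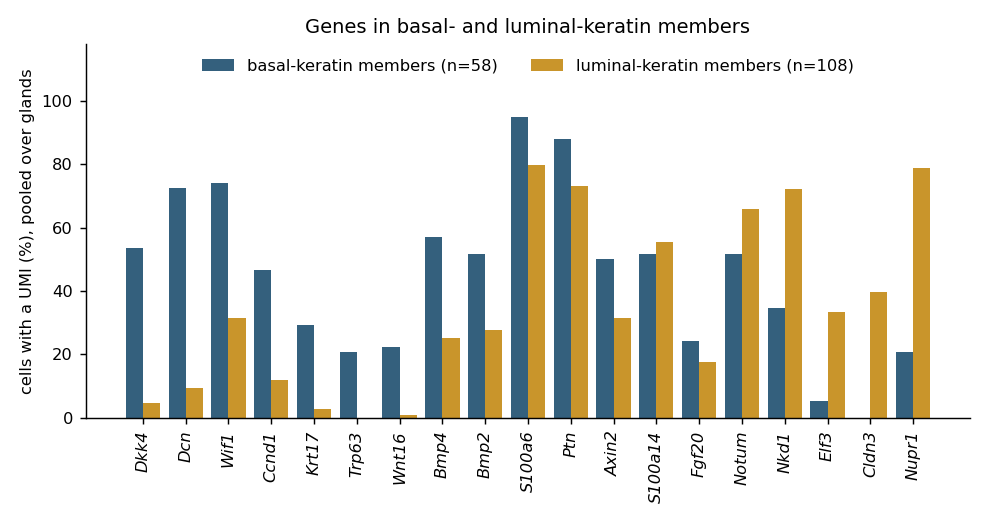
Percent of basal-keratin and luminal-keratin Wnt and Bmp cells, pooled over glands, that had a UMI of each gene. Dkk4, Dcn and Wif1 were found more often on the basal side (Dkk4 53.4% against 4.63%), Nupr1 and Nkd1 on the luminal side (Nupr1 78.7% against 20.7%).

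Summed per gland and class, genes were tested in the 4 glands with at least 5 cells of each class (P40 R6, P90 R3, P90 R4 and P90 R5), with the gland as a block. Of 123 genes 1 passed at an adjusted p under 0.05 (0.813%) by edgeR's quasi-likelihood test, Krt18, which defines the classes and is no finding; 22 had an unadjusted p under 0.05, and DESeq2 called 11. Without P90 R5, one of the libraries of doubtful label, 6 genes passed, and without P40 R6 or P90 R4 0 passed. Nupr1, a stress-induced nuclear protein of tumours, stood at 829.3, 115, 1063 and 0 CPM in basal-keratin cells of P90 R5, P40 R6, P90 R3 and P90 R4, and at 1036, 1829, 9372 and 2974 CPM in luminal-keratin cells. It was lower in the basal-keratin cells of all 4 glands, with a log2 difference of -2.96 ± 0.44 (SE, edgeR, adjusted p = 0.0619). Dcn stood at 3628, 3152, 4463 and 3886 CPM in basal-keratin cells of the same glands and at 0, 610, 750 and 48.0 CPM in luminal-keratin cells, without overlap (log2 difference 3.34 ± 0.90, edgeR, adjusted p = 0.136). Wif1 was higher in the basal-keratin cells of all 4 glands (2.27 ± 0.71, edgeR, adjusted p = 0.172), and Ptn lower in 3 of 4 (-1.11 ± 0.30, adjusted p = 0.136). S100a6, Wfdc18, Ifitm3 and Ly6e were lower on the basal side by 1.78 to 2.14 on the log2 scale, with edgeR adjusted p = 0.0752 each. None of these passed the threshold. Without scaling by trimmed means 36 genes passed, 29 higher and 7 lower in basal-keratin cells, and secretory transcripts made up 25.5% of the luminal-keratin UMIs of P90 R5 against 1.36% on its basal side.

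Between stages, the summed Wnt and Bmp cells of 3 P40 and 6 P90 glands with at least 10 of them were compared. Of 375 genes 0 (0.0%) passed by edgeR's quasi-likelihood test, 3 had an unadjusted p under 0.05, and DESeq2 called 0, as did edgeR without the 2 libraries of doubtful label. Ptn differed by -0.48 ± 0.65 (SE, log2, P90 minus P40), Axin2 by -0.06 ± 0.72, Bmp4 by -0.44 ± 0.80 and Notum by -0.63 ± 0.66 (edgeR, adjusted p = 0.984 for each). The lowest unadjusted p belonged to Thbs1, a matrix glycoprotein (2.39 ± 0.87, edgeR, adjusted p = 0.984). For the first 4 of these genes an interval of 2 SE reaches past a 2-fold change, so a change of that size cannot be told from none with these glands.

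The reporter and the cell cycle were read as well. EYFP was found in 34 cells (15.9%) of 10 glands, against 5.90% of other cells and 7.54% of cells with Ptprc or Pecam1. After thinning to 500 UMIs the shares were 5.75%, 1.58% and 3.58%. Of 123 other basal-keratin cells with Wif1, 8.13% had EYFP, and 6.14% after thinning, which is not below the chosen cells. Of 753 other luminal-keratin cells with 2 or more Clu UMIs, 10.4% had it, and 2.29% after thinning. The 40 chosen cells of P90 R5 had no EYFP UMI, and neither had the other cells of that gland. Cre had 1 UMI in the chosen cells. At least 2 of 9 late cell cycle genes were found in 7 of 214 cells (3.27%, exact interval 1.33 to 6.62), against 1.77% of other cells and 4.95% of cells with Ptprc or Pecam1. The basal-keratin cells with Wif1 were level with the chosen cells (3.25%), and the luminal-keratin cells with Clu had 1.73%. Mki67 was found in 12.1% of basal-keratin and 0.926% of luminal-keratin cells.

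Set beside the epithelial cells most like them, the Wnt and Bmp cells differed in some of these genes and shared others. The 123 other basal-keratin cells with Wif1 had Dcn (66.7%), Trp63 (36.6%) and Id3 (54.5%), but Ptn in 20.3%, Axin2 in 5.69% and Fgf20 and Wnt6 in 0 of 123 (median 757 UMIs), which allows up to 2.44% of cells with a UMI. S100a6 was found in 69.1% of them, and in 59.6% after thinning to 500 UMIs, so it was common to both. Basal-keratin Wnt and Bmp cells had Ptn in 87.9%, Axin2 in 50% and Id3 in 29.3%. The 753 luminal-keratin cells with 2 or more Clu UMIs (median 1620 UMIs) had Ptn in 1.73%, Axin2 in 4.12%, Pla2g2a in 0.531% and S100a6 in 28.95%. They shared Nupr1, which was found in 76.9% of them and in 78.7% of luminal-keratin Wnt and Bmp cells, and Elf3 (27.8% and 33.3%). Since the cells were chosen by genes of the same tables, this is a description.

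In control glands 12 cells met the rule. Of these, 9 had Lef1, 7 Notum and 5 S100a14, but 0 had Nkd1 or Dkk4. Ptn was found in 8, Dcn in 10 and S100a6 in 6, whereas Axin2, Wif1, Fgf20 and Pla2g2a were found in 0 of 12. Only 1 of the 12 had 3 or more genes of the rule. Double-mutant cells with exactly 2 had Ptn in 63.0%, Wif1 in 36.0%, Axin2 in 26.0%, Pla2g2a in 20% and Fgf20 in 11%. So few control cells set only a loose limit on the genes not found. Over all kept cells of the 14 control glands, Dkk4 had 1 UMI and Sp5 had 3, against 131 and 42 in double-mutant glands, while Lef1 had 69 against 112.

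In bulk tissue, with 1 library each and different ages, 4 of the 8 genes of the rule were at least 8-fold higher in the double mutant, against 1.13% of 13186 genes, whose median fold was 0.804. Since the rule genes were chosen for double-mutant cells, this gap is a description and no support. Nkd1 had 82 counts in the control and 1630 in the double mutant (2.38 and 46.9 CPM, 19.8-fold) and S100a14 5 and 83 counts (16.5-fold). Dkk4 had 0 and 44 counts, at least 14.6-fold higher, and Sp5 0 and 26, at least 8.61-fold, both against a floor of 3 counts. Lef1 was 6.18-fold and Notum 3.41-fold higher. Bmp2 (10 and 11 counts) was level and Bmp4 was lower, with 98 and 36 counts. Outside the rule Axin2 was 7.38-fold and Wif1 8.70-fold higher, Ptn 1.34-fold, and Pla2g2a had 0 and 499 counts. In bulk tissue, more cells of a kind and more RNA per cell cannot be told apart, and with 1 library per genotype there is no replicate check.

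Surface proteins were read on the 14 Wnt and Bmp cells of the P70 glands by 61 antibody tags, each as its share of a cell's tags. EpCAM, an epithelial adhesion protein, ran from 1.70% over a median of 7.51% to 18.5% in the 7 cells of R1 and from 3.02% over 6.77% to 23.7% in the 7 cells of R2. Other cells had medians of 0.543% and 0.445%, and other luminal-keratin cells 2.69% and 1.598%. All 14 cells were above the median of other cells, and 5 of 7 and 7 of 7 above that of other luminal-keratin cells. The basal integrin CD104, which binds laminin, had medians of 2.50% and 2.62% against 0.592% and 0.428% in other cells. Other luminal-keratin cells had 1.41% and 1.04%, and 6 of 7 and 4 of 7 cells were above these. CD29, the beta-1 integrin, had 7.51% and 5.18% against 1.44% and 1.14% in other cells, with 7 of 7 and 5 of 7 cells above. Against the 2.46% and 1.46% of other luminal-keratin cells, 6 of 7 and 5 of 7 cells were above. CD24, which with CD29 marks such cells in the study, had medians of 1.51% and 1.44%, against 1.01% and 0.981% in other cells and 1.605% and 1.93% in other luminal-keratin cells. CD133, used as a stem cell marker in several tumours, had medians of 8.79% and 8.26% against 5.78% and 5.02%, and against 7.73% and 6.23% in other luminal-keratin cells. Tags of immune cells went both ways. That of the gamma-delta T cell receptor had 5.12% and 4.49% against 4.03% and 3.59%, and 4.71% and 4.08% in other luminal-keratin cells. CD11b had 0% and 0% against 0.106% and 0.174% in other cells. MHC class II was lower than in cells with Ptprc (1.04% and 0.862% against 5.14% and 25%). The 4 control antibodies had medians of 0.290 to 0.895% in the Wnt and Bmp cells and 0.335 to 1.02% in other cells. The Wnt and Bmp cells had a median of 1035 tags in R1 and 447 in R2, against 888 and 961 in other cells. These are 2 glands and were not tested.

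**Figure D5:**
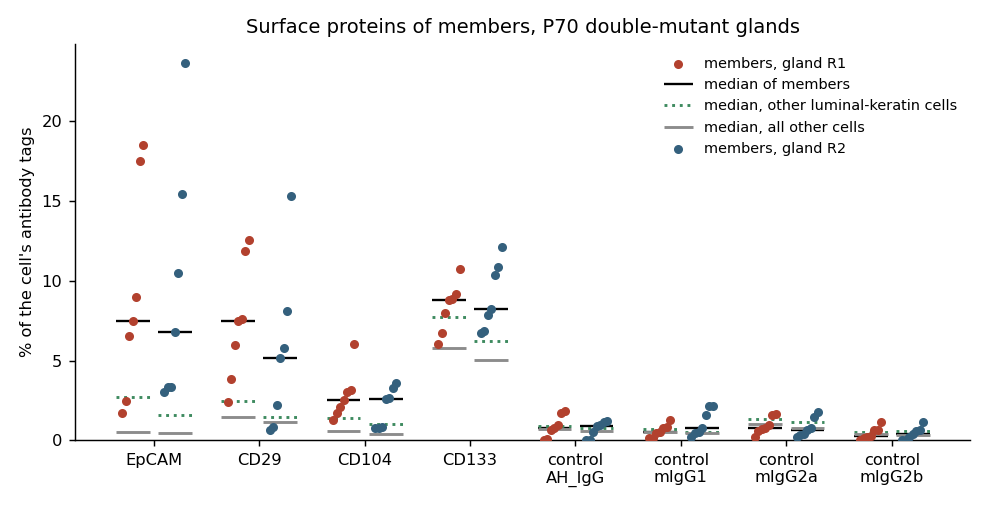
Share of each Wnt and Bmp cell's antibody tags (points, 7 cells in each P70 double-mutant gland) for 4 proteins and 4 control antibodies, with the median of the points (black), of other luminal-keratin cells (dotted) and of all other cells (grey). EpCAM, CD29 and CD104 medians lie above both comparison lines in both glands, and those of the control antibodies lie on both sides of them.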

How the data were processed

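Deposited UMI counts per gene and cell were used as the authors made them (Drop-seq tools and STAR, mm10, GENCODE vM7 with Cre and EYFP added; bulk counts by STAR and featureCounts; antibody tag counts by CITEseq-count). Barcodes with at least 100 genes and under 15% mitochondrial UMIs were kept; no doublet caller was run. The cells, gene lists and tests were chosen with earlier results of these data known, and genes were named by size as stated with each comparison, plus listed genes. Shares were compared over glands by exact permutation tests with Benjamini-Hochberg adjustment. Summed counts were tested with edgeR 4.0.16 (R 4.3.3; quasi-likelihood, trimmed-mean scaling, low-count filter; gland block or sex, and log2 number of cells, as terms); DESeq2 1.42.0 and lme4 1.1.37 were alternatives. Each replicate was 1 gland of a mouse, and p-values measure the spread between these glands. On simulated counts, the class test recovered 66.7% of 4-fold and 66.7% of 16-fold changes over 123 genes. The stage test recovered 46.8% and 80.4% over 375. The simulated counts had the same spread for all genes and no difference between glands but depth, so these shares need not hold for the real counts. Same-numbered glands of both stages deviated to the same side in 4 of 7 pairs, so the numbers were not taken as pairs. Intervals cover counting error only.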

Additional observations from a re-analysis of the deposited data

Results flagged for a closer look

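Of 28 sets of gland values tested for a gland far from the rest, 3 shares of cells that met the rule stood out. In the P40 double mutants R6 had 3.49%, with the next gland at 1.69%. In the P40 controls R1 had 0.585%, with 5 of its 855 cells meeting the rule, and in the P90 controls R2 had 0.101%, from 1 of 992 cells, where the other glands had none. In that last group any share above none in 1 gland alone would have been marked. Chance marks about 1 group in 20 in this way if values are normally distributed, which need not hold for these shares.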

How the results depend on the processing

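The difference in share between stages ran from 0.243 to 1.02 points over 24 alternatives, with 0 reversals. That between sexes ran from 0.404 to 1.10 over 23, also with 0 reversals. Both counts include the binomial mixed model, which gave log odds and a p of its own, and count leaving out P90 R4 more than once. The lowest p were 0.0612 and 0.0769, both from exact permutation tests. Leaving out 1 gland each gave 0.394 to 1.02 and 0.659 to 1.10. The basal-keratin share reversed in 7 of 19 alternatives by stage and 6 of 18 by sex. These alternatives are not all distinct, since leaving out P90 R4 is counted more than once. Leaving out P40 R3, P40 R4 or P90 R7, which were not in this test, returned the main value. Leaving out 1 gland gave -3.57 to 9.88 and -14.2 to 2.46 points, and leaving out P90 R4 gave 1.33 by sex. For genes between keratin classes the calls were 11 with DESeq2, 36 without trimmed-mean scaling (29 higher, 7 lower in basal-keratin cells), 18 without the low-count filter, 10 without the number of cells, 0 with S100a14 left out of the rule, 6 without the libraries of doubtful label, and 0 to 25 leaving out 1 gland (25 without P90 R3, 6 without P90 R5, 0 without P40 R6 or P90 R4). The cause was not tested.

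With a replicate block, the share differed by 0.647 points between stages (exact test by flipping the signs of same-numbered differences, p = 0.344) and the basal-keratin share by 9.17. Genes between stages gave 2 calls with the block, fitted without sex, against 0, and genes between classes 6 without the gland block. A stricter keratin class, 10 cells of each class, the basal-keratin share on thinned cells, and the basal-keratin share by stage with 3 genes or by sex with 10 classed cells gave no value. Alternatives on deep cells, 3 or more genes, doubtful libraries, P90 R4 and Drop-seq glands alone were chosen after seeing the data.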
